A study of Schizosaccharomyces pombe with 22 samples.

Results

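The subtelomeric cosmid genes are the genes of fission yeast, Schizosaccharomyces pombe, whose probe names carry one of the cosmids at the ends of chromosomes I and II: SPAC212, SPAC977, SPAC750, SPAC186, SPAC869, SPAC1348, SPBPB2B2 and SPBPB10D8. The rule that picks them uses probe names and no measured value, and 94 of 5059 open reading frame (ORF) probe names and 85 of 5149 intergenic region (IGR) probe names belonged to them. Of the 94 ORF names, 90 matched a gene in the RefSeq annotation of assembly ASM294v3, and 29 of these had a gene symbol. SPAC1348 names were matched through SPBC1348, the name the annotation uses for that cosmid on chromosome II. The matched genes started between 0.0 and 99.9 kb from a chromosome end, which places the set where its label says. SPAC212 and SPAC977 lie on the left arm of chromosome I and SPAC750, SPAC186 and SPAC869 on its right arm. SPAC1348 and SPBPB10D8 lie on the left arm of chromosome II and SPBPB2B2 on its right arm.

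The study examined Pst3, a fission yeast homolog of Sin3, on spotted arrays, with 22 samples in all. RNA came from 2 arrays of a strain with pst3 under an nmt promoter, labelled as repressed and called pst3 repressed here after that label, and from 8 wild-type arrays. DNA bound by Pst3 fused to green fluorescent protein (Pst3-GFP) was set against wild-type input on 2 IGR samples, and a Pst3-GFP experiment with beads gave 2 IGR and 2 ORF samples. Histone H3 immunoprecipitates came from strains named hst2D and hst4D and from wild type, with 1 sample per strain and probe set. No other genotype, culture condition or age is given for these groups in the labels. The labels do not tie the arrays of a group to different cultures, and the p-values rest on array-to-array spread that may be technical.

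Fission yeast subtelomeres hold blocks of genes that are duplicated between chromosome arms, next to the telomere-linked RecQ helicase genes. Silent chromatin that starts at the telomere, together with a wider domain of low histone acetylation, keeps most genes there at low RNA levels in growing cells, and many of them are known to be induced by starvation or stress. Sin3 proteins are scaffolds for histone deacetylases of the Rpd3 class, called Clr6 in this yeast.

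The duplicated blocks make the array values of related copies the natural comparison. A search of member coding sequences against each other, with at least 95% identity over at least 300 bases, put 39 ORF members in 13 families. The family of Vel1p domain proteins, named after a protein of Saccharomyces cerevisiae, has 3 copies, SPAC977.05c on the left arm of chromosome I, SPAC1348.06c on the left arm of chromosome II and SPBPB2B2.15 on the right arm of chromosome II. Their coding sequences of 615, 612 and 612 bases were 99.35% identical between SPAC977.05c and either other copy, and 100% identical between SPAC1348.06c and SPBPB2B2.15. The windows from 250 bases before to 50 after the annotated start are shown for the first pair because the 3 copies and SPBPB2B2.18 had the 4 highest expression differences of the members. SPAC977.05c lies at chrI:36333-36632 on the minus strand and SPAC1348.06c at chrII:16543-16842 on the minus strand of ASM294v3, from RefSeq. Capitals mark the 20 bases of SPAC977.05c without an identical counterpart in an alignment with SPAC1348.06c, the first bases of the window among them.
SPAC977.05c: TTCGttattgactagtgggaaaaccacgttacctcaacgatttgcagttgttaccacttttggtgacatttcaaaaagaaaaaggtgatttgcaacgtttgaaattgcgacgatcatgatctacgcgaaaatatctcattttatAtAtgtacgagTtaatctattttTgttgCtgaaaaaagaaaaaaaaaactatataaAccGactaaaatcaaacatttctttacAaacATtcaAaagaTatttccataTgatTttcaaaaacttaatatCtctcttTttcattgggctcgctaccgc
SPAC1348.06c: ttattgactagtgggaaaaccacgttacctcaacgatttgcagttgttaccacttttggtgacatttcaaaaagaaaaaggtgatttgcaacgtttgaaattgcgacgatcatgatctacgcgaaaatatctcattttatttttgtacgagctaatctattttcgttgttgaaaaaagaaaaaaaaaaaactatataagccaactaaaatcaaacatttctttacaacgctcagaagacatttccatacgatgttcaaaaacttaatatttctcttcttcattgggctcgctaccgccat
These windows were 91.8% identical over 305 aligned columns, and the window of SPBPB2B2.15, at chrII:4496123-4496422 on the plus strand, was identical to that of SPAC1348.06c. TATAAA, searched on both strands as exact bases, was found in the window of SPAC977.05c and not in the other 2. It was in 46.5% of all 5112 windows of the genome. The stretch TATATAA is in all 3 windows, and its share over the genome was not counted. The motif TGACGT, also searched on both strands, was in none of the 3 windows and in 5.4% of all windows.

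A second family shows identical copies side by side. SPBPB10D8.04c, SPBPB10D8.05c, SPBPB10D8.06c and SPBPB10D8.07c, annotated as transporters, have 100% identical coding sequences of 1140 bases and identical windows, shown once for SPBPB10D8.07c at chrII:101091-101390 on the minus strand.
SPBPB10D8.07c: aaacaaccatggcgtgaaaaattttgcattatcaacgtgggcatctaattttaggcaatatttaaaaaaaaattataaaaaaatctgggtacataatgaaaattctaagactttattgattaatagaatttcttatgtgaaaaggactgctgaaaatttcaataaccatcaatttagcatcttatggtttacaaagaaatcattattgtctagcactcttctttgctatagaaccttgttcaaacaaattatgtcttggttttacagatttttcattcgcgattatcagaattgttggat
The probe sequences were not used here, so how far a probe takes up RNA of a related copy was not tested.

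Median net signals of the 10 expression arrays lay between 379 and 3776. The 2 pst3 repressed arrays lay on a print of their own, and wild-type replicates 1 to 5 and 6 to 8 on 2 further prints, so the print and the group cannot be told apart. Only 67 of the 94 ORF members were on the print of wild-type replicates 6 to 8, which has no SPBPB2B2 and no SPBPB10D8 names. Differences are therefore given against all 8 wild-type arrays where the member was on them, and otherwise against wild-type replicates 1 to 5. The pst3 probe itself averaged 10.10 on the log2 scale on pst3 repressed arrays and 10.20 on wild-type arrays, a difference of -0.10 with an SE of 0.40 (limma, adjusted p = 0.917), so the repression that the label names was not seen in this probe, and each direction below is that of the arrays labelled pst3 repressed. Shares of members above the 95th percentile of empty spots ran from 22.4% to 93.6% per array, against 42.9% to 96.8% of all names. SPAC212.07c was above it on no array and was not tested.

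Most subtelomeric cosmid genes did not pass the test between arrays labelled pst3 repressed and wild-type arrays, and those that did moved in both directions. Against all 8 wild-type arrays, limma on quantile-normalised log2 signals called 7 of the 66 members tested at an adjusted p under 0.05, or 10.6%, against 8.58% of all 4534 genes. Of these, 6 were higher on pst3 repressed arrays (9.09% of members, against 4.17% of all genes) and 1 was lower (1.52%, against 4.41%). Against wild-type replicates 1 to 5, 17 of 93 members were called (18.3%, against 15.7% of 4705 genes), 12 higher (12.9%, against 7.06%) and 5 lower (5.38%, against 8.61%). The shares of called members were near those of all genes in both comparisons. The count called higher depended on the processing. Without the dimmest 25% of probes, limma called 0 of the 23 members left higher and 1 lower against all wild-type arrays (3.38% and 5.5% of all genes), and 4 higher and 5 lower of 33 against replicates 1 to 5 (6.4% and 11.4%). All 6 members called higher against all wild-type arrays were left out by this filter, so the 0 does not test them. Some of the 12 against replicates 1 to 5 were left out too. Without background correction, limma called 8 higher and 0 lower against all wild-type arrays (4.26% and 4.43%), and 12 higher and 3 lower against replicates 1 to 5 (6.78% and 8.4%). With median centring it called 3 higher and 0 lower against all wild-type arrays (2.27% and 2.45%), and 5 higher and 2 lower against replicates 1 to 5 (101 and 186 of all 4705 genes). The median difference of the members was 0.01 against all wild-type arrays and -0.08 against replicates 1 to 5, beside -0.04 and -0.05 for all genes. The differences spanned -1.73 to 4.99 in the first comparison and -2.43 to 5.18 in the second.

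The counts by cosmid, as in the plot of differences by cosmid, are of members called against wild-type replicates 1 to 5. In that comparison 7.06% of all genes were called higher and 8.61% lower. SPBPB2B2, on the right arm of chromosome II, held 6 of the 12 higher members, among 20 tested, and 1 lower member. SPBPB10D8 held 3 of the 5 lower members, among 7 tested, and no member of it was higher. Of these 3, SPBPB10D8.05c and SPBPB10D8.07c have identical coding sequences and are not separate observations. SPAC977 and SPAC1348 held 2 higher members each, and SPAC750 held none in either direction. The cosmid medians against replicates 1 to 5 ran from -2.08 for SPBPB10D8 to 1.14 for SPAC977, and the other 6 lay between -0.65 and 0.43. They depended on the wild-type arrays used. Against all 8 wild-type arrays the median was 0.44 for SPAC977 and -0.22 for SPAC186, which had -0.65 against replicates 1 to 5. No test was made between cosmids, since members of 1 cosmid share sequence with each other and with other cosmids.

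**Figure D1:**
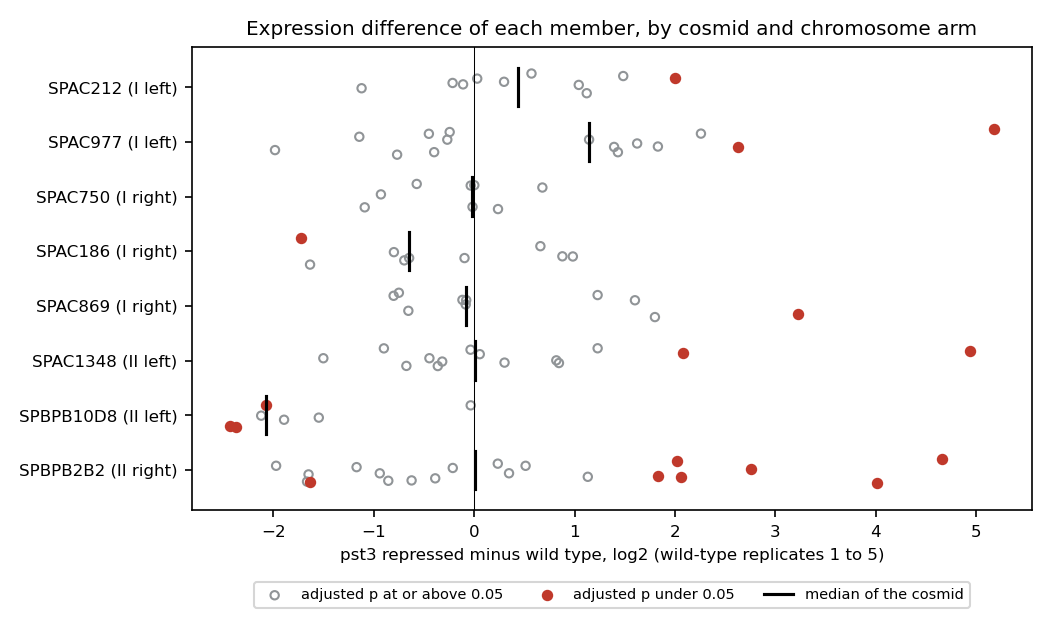
Difference between pst3 repressed arrays and wild-type replicates 1 to 5 on the log2 scale (x) for each of the 93 members, by cosmid and chromosome arm (rows); filled points have an adjusted p under 0.05 and black bars are cosmid medians. The 3 Vel1p domain genes, at 5.18, 4.94 and 4.02, and SPBPB2B2.18, at 4.66, stand at the right, and all 7 SPBPB10D8 members lie below 0.

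The 3 Vel1p domain genes were among the most changed members, and all 3 were higher on pst3 repressed arrays. Their coding sequences are 99.35% to 100% identical and their probes may take up the same RNA. Their 3 calls are therefore not 3 separate observations. SPAC977.05c had normalised log2 levels of 13.32 and 13.09 on the pst3 repressed arrays, against a lowest of 7.43, a median of 8.09 and a highest of 9.69 on the 8 wild-type arrays. Both pst3 repressed arrays lay above every wild-type array. The difference was 4.90 with an SE of 0.55 (limma, adjusted p = 0.000244, n = 2 and 8). SPAC1348.06c had 13.48 and 12.67 on the pst3 repressed arrays, against a lowest of 7.11, a median of 7.79 and a highest of 9.33 in wild type. Again the groups did not overlap, with a difference of 4.99 and an SE of 0.60 (limma, adjusted p = 0.00035). Each of these 2 genes was above the empty-spot limit on both pst3 repressed arrays and on 3 of 8 wild-type arrays.

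SPBPB2B2.15, the copy on the right arm of chromosome II, was on the print of wild-type replicates 1 to 5 only. It had 11.56 and 11.01 on the pst3 repressed arrays, against 7.14, 6.85, 8.23, 6.77 and 7.34 in wild type. No wild-type value of SPBPB2B2.15 was above the empty-spot limit, so only a bound can be given. Its level was at least 11.8-fold higher on pst3 repressed arrays, taking for each wild-type array the higher of the gene's own level and the lowest level among probes above that limit (limma, adjusted p = 0.00161). The measured means were 11.28 and 7.27, a difference of 4.02 with an SE of 0.47. The Vel1p domain genes were the only 3 of the 17 members called in either comparison that kept their call without any single array. The other 14 lost it without pst3 repressed replicate 1, with adjusted p between 0.0573 and 0.322 over both comparisons, and 13 of them lost it without replicate 2, with adjusted p between 0.0626 and 0.358.

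**Figure D2:**
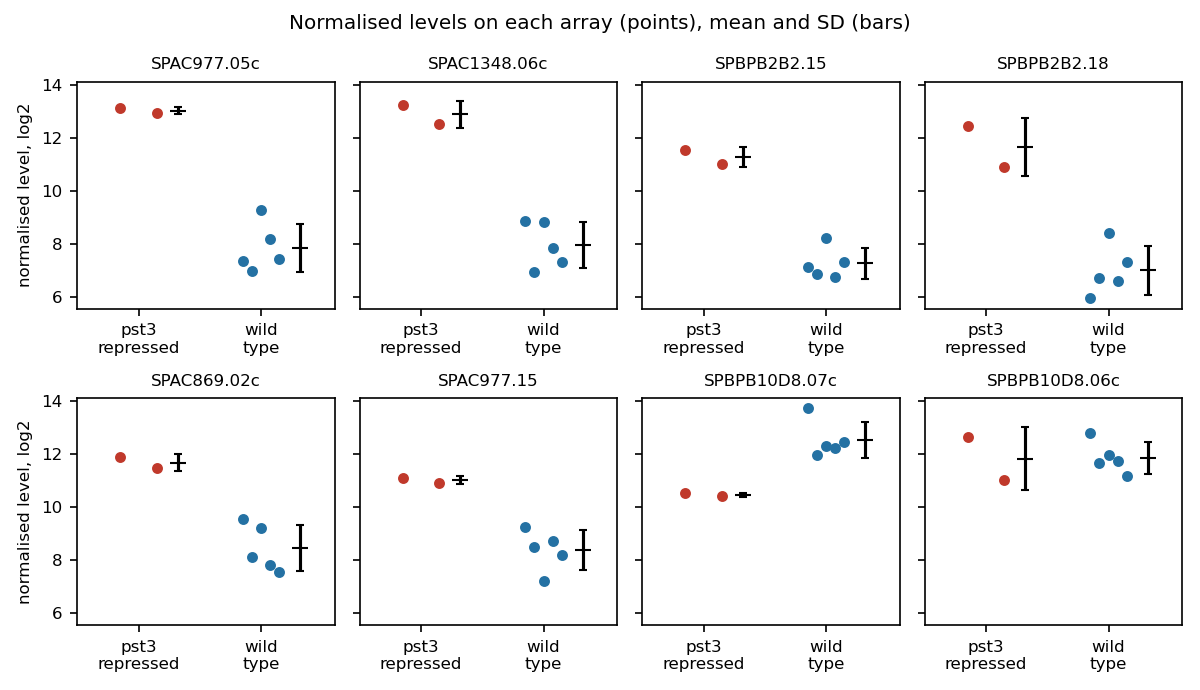
Normalised log2 level (y) of 8 members on the 2 pst3 repressed arrays (left) and on wild-type replicates 1 to 5 (right), normalised together; bars give the mean and SD. The Vel1p domain genes, SPBPB2B2.18, yhb1 (SPAC869.02c) and SPAC977.15 do not overlap between the groups. The identical copies SPBPB10D8.07c and SPBPB10D8.06c have differences of -2.08 and -0.03, with no test between them.

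SPBPB2B2.18, an uncharacterised gene near SPBPB2B2.15, was also higher. Its levels were 12.44 and 10.89 on the pst3 repressed arrays, against 5.95, 6.72, 8.41, 6.59 and 7.34 in wild type, and no wild-type value was above the empty-spot limit. The level was at least 15.3-fold higher on pst3 repressed arrays (limma, adjusted p = 0.00506), and the measured difference was 4.66 with an SE of 0.69. The call was lost without pst3 repressed replicate 1, where the difference was 3.97 (adjusted p = 0.0573). Without background correction the difference was 2.92 (adjusted p = 0.272).

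The nitric oxide dioxygenase gene yhb1 (SPAC869.02c), whose product detoxifies nitric oxide, was the only one of the called members with a gene symbol. Its levels were 12.06 and 11.63 on pst3 repressed arrays, against a lowest of 7.62, a median of 8.32 and a highest of 9.93 in wild type, without overlap. The difference was 3.29 with an SE of 0.58 (limma, adjusted p = 0.00524). SPAC977.15, annotated as a dienelactone hydrolase family protein implicated in detoxification, had 11.32 and 11.13 on pst3 repressed arrays, against a lowest of 7.94, a median of 8.91 and a highest of 9.68 in wild type. It differed by 2.34 with an SE of 0.44 (adjusted p = 0.00676), also without overlap. Both genes were above the empty-spot limit on 2 of 2 pst3 repressed arrays, and on 5 of 8 (yhb1) and 4 of 8 (SPAC977.15) wild-type arrays. Without pst3 repressed replicate 1 the adjusted p was 0.113 for yhb1 and 0.115 for SPAC977.15, and without replicate 2 it was 0.0626 for yhb1 and 0.079 for SPAC977.15. Against wild-type replicates 1 to 5, SPAC977.15 also lost its call without replicate 5 (adjusted p = 0.0501).

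Smaller rises were called for SPAC1348.01 and SPAC212.05c, annotated 5.5 and 20.8 kb from a chromosome end. SPAC1348.01, uncharacterised, had 10.09 and 10.06 on pst3 repressed arrays, against a lowest of 7.42, a median of 8.04 and a highest of 9.53 in wild type (difference 1.96, SE 0.49, limma adjusted p = 0.0248). It was above the empty-spot limit on 2 of 2 pst3 repressed and 4 of 8 wild-type arrays. Its mean wild-type signal lay at the 1.76 percentile of all ORF probes. SPAC212.05c had 10.03 and 9.37, against a lowest of 7.53, a median of 7.59 and a highest of 8.93 (difference 1.79, SE 0.46, adjusted p = 0.0298). Neither gene overlapped between the groups. With a random block for the print, the adjusted p was 0.0902 for SPAC1348.01 and 0.110 for SPAC212.05c. Against wild-type replicates 1 to 5, SPAC1348.01 lost its call without replicate 1, 2, 4 or 5 (0.0568 to 0.111). Against all wild-type arrays, SPAC212.05c lost its call without wild-type replicate 2, 4 or 5, with adjusted p between 0.0521 and 0.0552, and both genes lost it without either pst3 repressed array, with adjusted p between 0.115 and 0.322.

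On SPBPB2B2, 4 further members were called higher against wild-type replicates 1 to 5. SPBPB2B2.20c had 10.40 and 10.33 on pst3 repressed arrays, against 6.31, 7.87, 8.70, 7.17 and 7.95 in wild type (difference 2.76, SE 0.60, limma adjusted p = 0.0178). SPBPB2B2.06c, annotated as a phosphoprotein phosphatase, had 9.72 and 8.86, against 7.23, 6.50, 8.50, 6.59 and 7.34, with no wild-type array above the empty-spot limit (at least 2.92-fold higher, adjusted p = 0.0454). SPBPB2B2.03c had 9.04 and 9.37, against 7.48, 6.78, 7.46, 6.84 and 7.34 (difference 2.02, adjusted p = 0.011). No wild-type array and only 1 of 2 pst3 repressed arrays was above that limit for SPBPB2B2.03c, so no bound is given. These values place all pst3 repressed arrays above all wild-type arrays for the 3 genes. SPBPB2B2.07c, uncharacterised, had 9.56 and 9.77, against 6.99, 7.57, 7.69, 8.01 and 8.90 (difference 1.83, SE 0.51, adjusted p = 0.0445), also without overlap. All 4 calls were lost without either pst3 repressed array. SPBPB2B2.20c lost its call without wild-type replicate 5 (adjusted p = 0.0573) and without background correction (difference 1.66, adjusted p = 0.338), SPBPB2B2.06c without replicate 1, 2, 4 or 5 (0.0601 to 0.0984) and SPBPB2B2.07c without replicate 2 or 4 (0.0867 and 0.0786).

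The lower members were fewer and closer to the threshold. SPAC186.06, annotated as an isomerase, was the only lower member against all wild-type arrays, with 9.15 and 8.64 on pst3 repressed arrays, against a lowest of 9.69, a median of 10.39 and a highest of 11.16 in wild type. The groups did not overlap, and the difference was -1.56 with an SE of 0.44 (limma, adjusted p = 0.0449). Against wild-type replicates 1 to 5 the difference of SPAC186.06 was -1.72 (adjusted p = 0.0442), with a random block for the print it was -1.57 (adjusted p = 0.147), and without background correction -1.09 (adjusted p = 0.146). The call was lost without either pst3 repressed array (0.190 and 0.330) and without wild-type replicate 3, 4, 5 or 6 (0.0501 to 0.0766).

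SPBPB10D8 held the other lower calls but 1, on a cosmid whose 7 members all had negative differences. SPBPB10D8.03, without an annotated product, had 7.83 and 7.65 on pst3 repressed arrays, against 10.48, 8.94, 10.71, 10.27 and 10.15 in wild type (difference -2.37, SE 0.51, limma adjusted p = 0.0162). It overlapped on no array and lost its call without pst3 repressed replicate 1 (adjusted p = 0.100) or 2 (0.107). The 4 transporter copies, whose coding sequences are identical, gave unlike values, and no test was made between them. SPBPB10D8.07c had 10.53 and 10.41 on pst3 repressed arrays, against 13.74, 11.99, 12.32, 12.24 and 12.47 in wild type (difference -2.08, SE 0.50, adjusted p = 0.0262). SPBPB10D8.05c had 11.31 and 9.42, against 14.35, 12.57, 12.33, 12.07 and 12.67 (difference -2.43, SE 0.71, adjusted p = 0.0499). Both lay below every wild-type array.

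The other 2 transporter copies were not called. SPBPB10D8.04c differed by -1.55 with an SE of 0.62 (limma, adjusted p = 0.129), and its pst3 repressed values of 11.37 and 9.84 lay just below a wild-type lowest of 11.38. SPBPB10D8.06c had 12.67 and 11.02 on pst3 repressed arrays, against 12.81, 11.69, 11.98, 11.75 and 11.17 in wild type, a difference of -0.03 with an SE of 0.57 (adjusted p = 0.975). The 4 identical copies thus spanned 2.40 on the log2 scale. These members share their sequence, so the 7 negative differences of the cosmid are not 7 separate observations. SPBPB10D8.07c lost its call without wild-type replicate 4 or 5 (0.0503 and 0.0635), and SPBPB10D8.05c without replicate 2, 4 or 5 (0.0687 to 0.0984), and both lost it without either pst3 repressed array.

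SPBPB2B2.19c was the remaining lower call. Its product is a transmembrane helix protein, and it had 8.61 and 8.22 on pst3 repressed arrays, against 9.45, 10.27, 10.08, 9.81 and 10.63 in wild type (difference -1.63, SE 0.42, limma adjusted p = 0.0316). Both pst3 repressed arrays lay below every wild-type array. Its identical copy ftm5 (SPAC1348.02) differed by 0.06 in the same comparison, and the copies ftm1 (SPAC977.01) and ftm4 (SPAC750.05c), each at least 99.81% identical to SPBPB2B2.19c over the aligned bases, by -0.27 and -0.02. The call was lost without either pst3 repressed array and without wild-type replicate 2, 4 or 5 (adjusted p 0.0603 to 0.0778), and without background correction the difference was -1.11 (adjusted p = 0.169).

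Among the other members with a symbol, none passed the test in either comparison. fex1 (SPAC977.11), which exports fluoride from the cell, had 12.33 and 12.13 on pst3 repressed arrays, against a lowest of 8.48, a median of 10.37 and a highest of 11.34 in wild type (difference 2.01, SE 0.69, limma adjusted p = 0.0886). The pst3 repressed arrays lay above every wild-type array. hry1 (SPAC869.06c), a cation-binding HHE domain gene, differed by 1.64 (adjusted p = 0.0582) and the sulfate transporter gene sul2 (SPAC869.05c) by 1.54 (adjusted p = 0.145). Of the galactose genes of SPBPB2B2, gal10 differed by 0.23 and gal1 by -0.86 (adjusted p = 0.795 and 0.354). gal7 was above the empty-spot limit on 1 of 2 pst3 repressed and on no wild-type array, so no bound is given. It averaged 8.34 on pst3 repressed arrays and 7.21 on wild-type replicates 1 to 5 (limma, adjusted p = 0.226). tlh1 (SPAC212.11), the telomere-linked RecQ helicase gene at the very end of chromosome I, had 8.92 and 8.53 on pst3 repressed arrays, against a lowest of 8.16, a median of 9.14 and a highest of 10.72 in wild type. It overlapped fully and differed by -0.61 with an SE of 0.62 (adjusted p = 0.603).

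The lowest differences against all wild-type arrays, besides SPAC186.06, were not called. They were -1.73 for the lactate dehydrogenase gene SPAC186.08c (limma, adjusted p = 0.0572), -1.56 for the asparaginase gene SPAC977.12 (0.123), -1.17 for the aldo-keto reductase gene SPAC977.14c (0.112) and -1.04 for the uncharacterised SPAC750.07c (0.311). SPAC186.08c had 7.30 and 7.18 on pst3 repressed arrays, below a wild-type lowest of 7.99. In all, both pst3 repressed arrays lay above every wild-type array for 14 of 66 members (12.4% of all genes) and below for 5 (10.4% of all genes). Against wild-type replicates 1 to 5 the counts were 22 and 13 of 93 members, beside 18.3% and 19.8% of all genes.

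Wild-type signals of the members were mostly weak. The median percentile of a member's mean wild-type signal among all ORF probes was 8.92 over the 8 arrays, and 43 of 66 members lay in the lowest 25%. Over wild-type replicates 1 to 5 it was 13.5, with 61 of 93 members in the lowest 25%, although 16 members lay in the highest 25%. Signals of different probes depend on the probe as well as on the RNA, so these percentiles describe signals and do not rank transcripts. SPAC212.09c was split by print: wild-type replicates 6 to 8 had 7.06, 6.84 and 7.09 and replicates 1 to 5 lay between 12.39 and 13.13, with pst3 repressed arrays at 12.09 and 13.04. Its difference was -0.22 against wild-type replicates 1 to 5 (limma, adjusted p = 0.757) and 5.19 against replicates 6 to 8 (adjusted p = 2.62e-06), so its value depends wholly on the wild-type print used.

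The cosmids SPAC977 and SPAC1348 carry 9 pairs of related genes in the same order, on the left arms of chromosomes I and II. Coding identity of the pairs was between 99.3% and 100% over the aligned bases. The aligned bases of SPAC977.04 and SPAC1348.05 were 468, or 32.1% of the longer copy. Those of SPAC977.06 and SPAC1348.07 were 82.5% and those of SPAC977.01 and SPAC1348.02 were 92.1% of it. The windows around the start were 43.2% identical for SPAC977.04 and SPAC1348.05 and 32.3% for SPAC977.01 and SPAC1348.02. The expression differences of the 2 copies of a pair lay between 0.08 and 1.15 apart, with a median gap of 0.43. In 7 of 9 pairs both copies had the same sign, and in 6 of 9 the SPAC977 copy had the higher difference. The second count depended on the wild-type print: it was 8 of 9 against replicates 1 to 5 and 4 of 9 against replicates 6 to 8, and the first was 6 and 7 of 9. The Vel1p domain pair was called in both copies, and no other pair was called in either. The values of the 2 cosmids were each obtained with the same 10 arrays and are set side by side without a test.

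Apart from the Vel1p pair, all differences of these copies were moderate. The ftm pair SPAC977.02 (ftm2) and SPAC1348.03 (ftm6) differed by 1.06 and 0.93 between pst3 repressed and wild-type arrays (limma, adjusted p = 0.143 and 0.261). SPAC977.06 and SPAC1348.07, uncharacterised, differed by 1.45 (adjusted p = 0.0672) and 0.70. The largest gap was that of the glycoprotein pair SPAC977.07c (pfl6) and SPAC1348.08c, at 0.44 and -0.71, with SEs of 0.87 and 0.59. The remaining pairs gave -0.12 and 0.15 for SPAC977.01 and SPAC1348.02, -0.14 and -0.57 for the methyltransferase genes SPAC977.03 and SPAC1348.04, and 0.98 and 0.25 for SPAC977.04, uncharacterised, and its transporter-annotated copy SPAC1348.05. SPAC977.08 (ayr2) and SPAC1348.09, with identical coding sequences, gave 0.60 and 0.10, and SPAC1348.09 was above the empty-spot limit on 1 of 8 wild-type arrays. The phospholipase genes SPAC977.09c (plb4) and SPAC1348.10c, also identical, gave -0.46 and -0.19. The differences of ayr2 and pfl6 turned with the wild-type print, at 1.62 and 1.14 against replicates 1 to 5 and -0.62 and -0.61 against replicates 6 to 8. In all, 18 of 66 members had opposite signs against the 2 wild-type prints, none of them among the 7 called against all wild-type arrays.

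**Figure D3:**
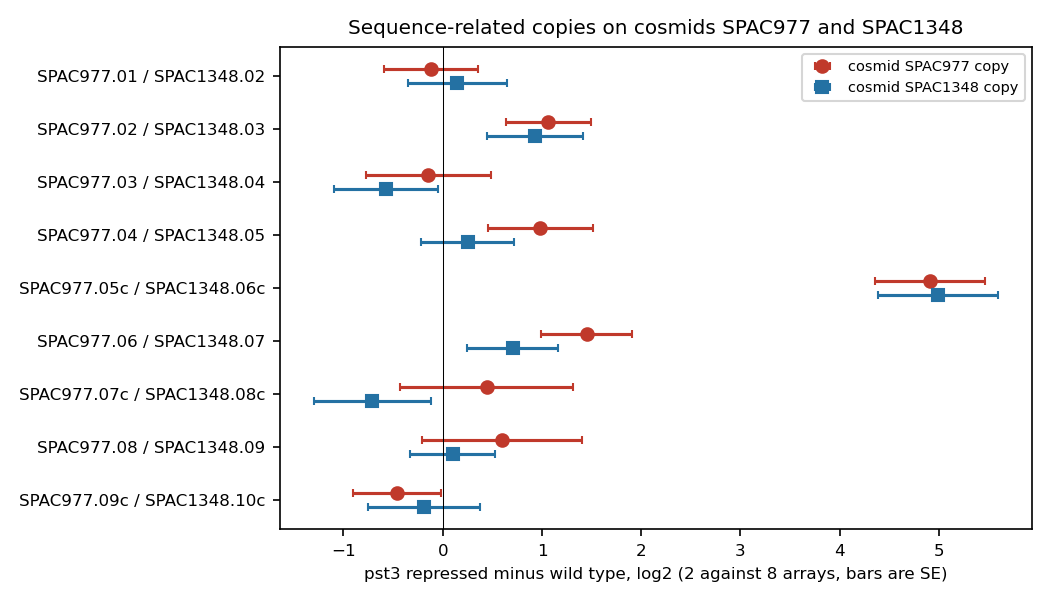
Expression difference between the 2 pst3 repressed and 8 wild-type arrays (x, log2, bars are SE) for the 9 pairs of related genes, with the SPAC977 copy as a circle and the SPAC1348 copy as a square. The Vel1p domain pair lies near 5 in both copies and the other 8 pairs lie between -0.71 and 1.45.

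Over the 13 families, 5 had a called member against wild-type replicates 1 to 5, and the Vel1p domain family was the 1 family with every copy called. In the other 4 only some copies were called. Copies of a family share sequence, so their calls are not separate observations. The span of differences within a family ran from 0.20 to 3.08, with a median of 1.51. The widest span belonged to the family of SPAC977.04 and SPAC1348.05, whose copy SPBPB2B2.16c had a difference of -1.65 with an SE of 1.25 while SPAC977.04 had 1.43. SPAC977.04 aligns with 468 of the 1458 coding bases of SPBPB2B2.16c, so these 2 are not full-length copies of each other. Copies of 3 methyltransferase genes, SPAC977.03, SPAC1348.04 and SPAC750.03c, all had small negative differences of -0.45, -0.90 and -0.57, and none was called.

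**Figure D4:**
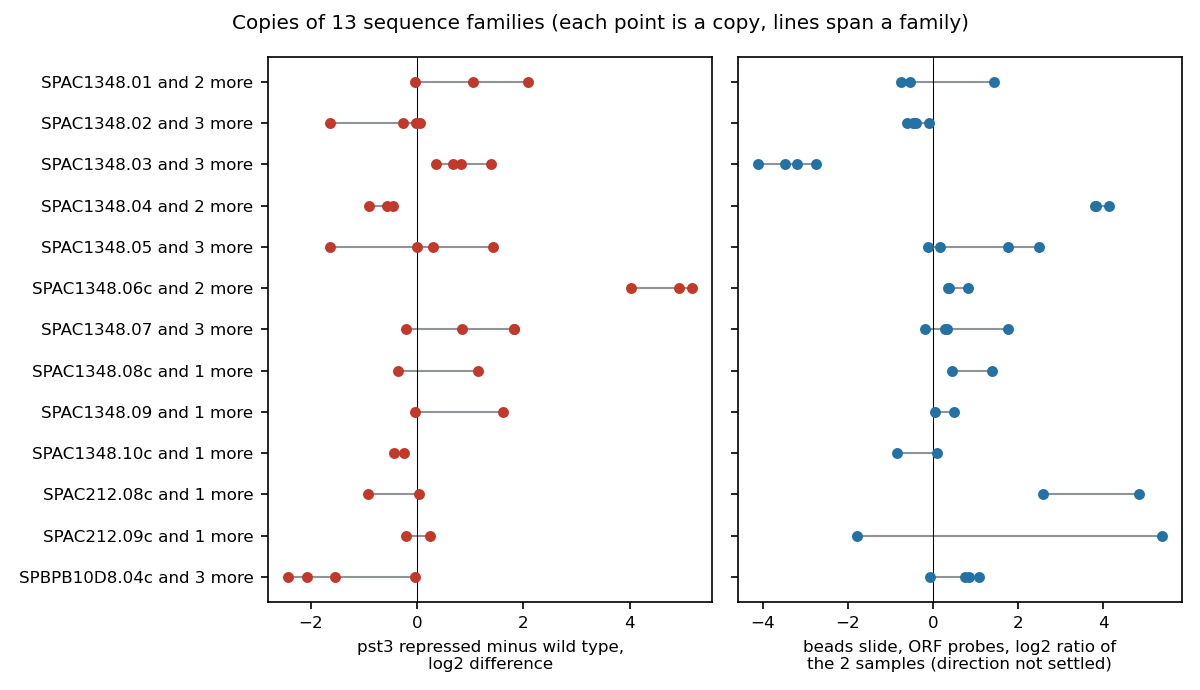
Copies of the 13 families, named by their first member: log2 difference between pst3 repressed arrays and wild-type replicates 1 to 5 (left) and log2 ratio of the 2 samples of the beads slide on ORF probes (right, direction not settled); points are copies and lines span a family. On the beads slide the copies of the SPAC1348.03 family lie at -4.12 to -2.74 and those of the SPAC1348.04 family at 3.81 to 4.14, each with 1 sign.

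Pst3-GFP over wild-type input was read at 81 member regions after 4 regions marked as missing spots were left out. Each IGR probe is named after a gene, and the sources used here do not say on which side of the gene it lies. The labels give opposite dyes for the 2 replicates. The deposited channel was taken to be the immunoprecipitate, which no label states, and its signal was divided by the authors' reference intensity of the region. Against a log2 ratio of 0, limma called 1 of 81 member regions, against 1.7% of all 4940 regions. It lay above 0 (0.951% of all regions were called above and 0.749% below), and 11 of 81 had an unadjusted p under 0.05, against 9.41% of all regions. The member median was 0.29, with 0.50 in replicate 1 and 0.02 in replicate 2, and 52 of 81 regions were above 0. Both replicates were above 0 at 32 of 81 member regions, or 39.5%, against 27.6% of all regions.

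The called region was that of SPBPB2B2.05, a class I glutamine amidotransferase gene, with log2 ratios of 2.04 and 3.67 in the 2 replicates and a mean of 2.85 (SE 0.84, limma adjusted p = 0.0432). Its reference intensity was at the 0.68 percentile of all regions, and its replicate 2 signal was not above the spots marked as missing. With either spot set alone, its adjusted p was 0.104 and 0.401. Over all regions, the ratio of replicate 2 followed the inverse of the reference (Spearman rho -0.91, over regions that share arrays), and that of replicate 1 did not (rho -0.08). At the members the mean ratio had a rho of -0.47 with the reference over 81 regions. The part of low reference intensity in the high ratios was not tested.

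The next regions were not called, and none of the 10 highest and lowest regions named here was above the spots marked as missing in replicate 2, where 32 of all 81 member regions were. The regions of nrg1 (SPBPB2B2.01), an amino-acid permease gene, and SPAC977.03 had means of 2.61 (2.77 and 2.44) and 2.35 (2.94 and 1.77), with limma adjusted p of 0.0872 and 0.164. SPAC977.15, called in expression, had a region mean of 2.35 from values of 0.06 and 4.63, with its reference at the 0.14 percentile. The replicates of this region disagree by more than those of any other region named here. The melibiase gene mel1 (SPAC869.07c) had 3.43 and 1.23, a mean of 2.33 (adjusted p = 0.172). At the low end, SPBPB2B2.14c had -4.36 and -0.70, a mean of -2.53 (adjusted p = 0.107), followed by SPAC1348.05 at -1.72, SPAC977.14c at -1.47, gal10 (SPBPB2B2.12c) at -1.31 and yhb1 (SPAC869.02c) at -1.26.

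The Vel1p domain genes had ratios near 0 in their regions. Those of SPAC977.05c were -0.18 and 0.43, those of SPAC1348.06c -0.51 and -0.25, and those of SPBPB2B2.15 0.41 and 0.26. None of the 3 means, 0.13, -0.38 and 0.33, was called, and each lay within 1 SE (0.84) of 0. Their references lay at the 85.4, 84.9 and 72.2 percentile, and over all regions the replicate 2 ratio fell as the reference rose. The part of the reference in these ratios was not tested. By cosmid, all 7 SPAC750 regions had a mean above 0, with a median of 0.82, and SPAC212 had the lowest median, -0.14. None of the SPAC750 regions was called (limma, adjusted p of 0.648 or more). The replicates had opposite signs at SPAC750.01 (-0.43 and 0.81), SPAC750.03c (2.00 and -0.72), SPAC750.04c (2.30 and -0.01) and SPAC750.05c (1.76 and -0.12). SPAC750.02c, SPAC750.06c and SPAC750.07c were above 0 in both.

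**Figure D5:**
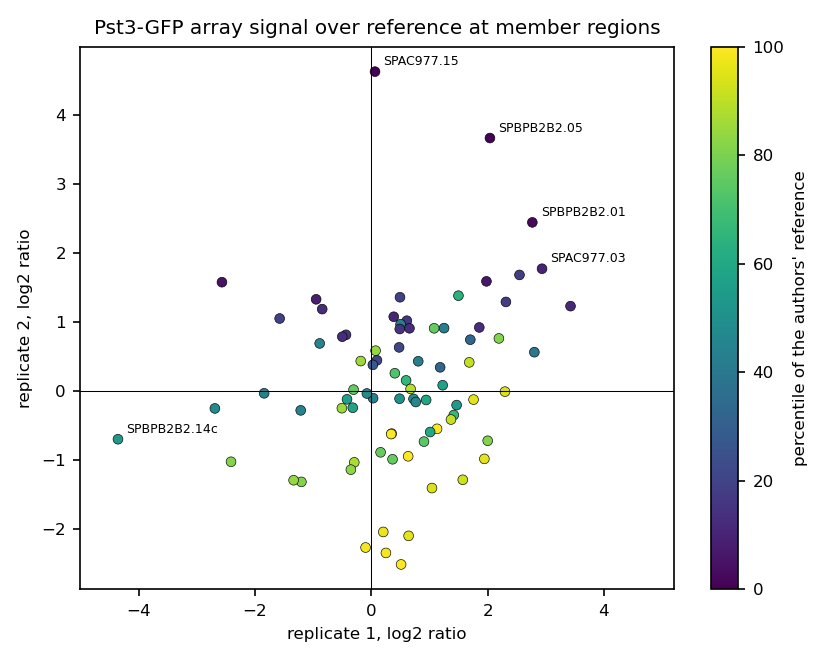
Log2 ratio of the Pst3-GFP immunoprecipitate signal over the authors' reference in replicate 1 (x) and replicate 2 (y) for the 81 member regions, coloured by the percentile of the reference. Regions with a low reference lie high in replicate 2, SPAC977.15 at 4.63 and SPBPB2B2.05 at 3.67 among them.

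The 2 samples of the beads experiment on each probe set were read as the 2 channels of 1 slide, so it has no replicate and no test. The labels do not settle which channel is the immunoprecipitate, and only sizes and shared signs are read. On ORF probes, 29 of 93 members differed at least 2-fold between the 2 samples in both spot sets, against 32.8% of all 4887 probes. On IGR probes, 25 of 81 members did so, against 24.3% of 4939, with 1 spot set because 2 deposited files held identical values. The members were near the share of all probes on both slides. The 2 samples of a slide were little alike over all probes (Spearman rho 0.13 to 0.19), while spot sets of a sample were (0.87 to 0.96). The ratios used signals without background correction. Median signals of sample 2 were 1023 to 1085, over local backgrounds of 1062 to 1081.5, so this channel lay at its background. Those of sample 1 were 151 to 214, over 121 to 122. The part of background in the ratios, their signs and the 2-fold counts was not tested.

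Copies of a family spanned under 1 on the log2 scale in 6 of 13 families on the ORF beads slide, with a median span of 1.16 over all families and no comparison with unrelated probes. The methyltransferase genes SPAC977.03, SPAC1348.04 and SPAC750.03c had log2 ratios of 4.04 and 3.62, 3.59 and 4.03, and 4.07 and 4.22 in the 2 spot sets. The ftm2 family, with a span of 1.38, had the opposite sign in all 4 copies, with -3.05 and -3.35 for SPAC977.02, -3.29 and -3.66 for SPAC1348.03, -3.97 and -4.26 for SPAC750.04c, and -2.65 and -2.83 for SPBPB2B2.17c. The Vel1p domain genes were below 2-fold, at 0.82 and 0.82, 0.09 and 0.64, and 0.09 and 0.67 for SPAC977.05c, SPAC1348.06c and SPBPB2B2.15. The largest span, 7.15, lay between SPAC212.09c at -1.78 and SPAC750.08c at 5.38, which are annotated at opposite ends of chromosome I. These 2 align over 687 bases, or 41.5% of the longer sequence. On ORF probes the largest ratio was that of SPAC977.17, a gene for a MIP superfamily protein (a family of membrane channels), at 5.58 and 5.69. On IGR probes the largest were the regions of gal7 (SPBPB2B2.10c) at 6.22 and tgd1 (SPBPB2B2.11) at 5.83, which are neighbours.

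Histone H3 was measured once per strain and probe set, and the files of the hst strains go against a simple reading of their labels. The 2 files of each hst sample correlated at a rho of 0.18 and 0.19 on IGR and 0.29 and 0.30 on ORF probes. The best correlation of hst files was between files carrying different strain names, with a rho of 0.43 on IGR probes and 0.53 on ORF probes. The 2 wild-type files correlated at 0.80 on both. Median signals of the hst files were 597 to 746, over local backgrounds of 497 to 636, and the labels do not say whether the deposited channel is H3 or input. The wild-type ratio over the authors' reference followed the inverse of the reference (rho -0.92 on IGR and -0.90 on ORF probes), so median-centred log2 signals were used for the members. They cannot separate H3 from the amount of DNA a probe takes up.

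In wild type the members as a whole lay at the middle of all probes. Their median centred signal was -0.01 over 81 IGR probes and 0.04 over 93 ORF probes, with 18 IGR probes in the highest 25% of all and 18 in the lowest 25%, and 28 and 22 of the ORF probes. The highest IGR signal belonged to the region of tlh1 (SPAC212.11), at 0.98 and 1.84 in the 2 spot sets, the 99.8 percentile of all regions. The highest ORF signal was that of SPAC212.06c, a DNA helicase-like gene, at 1.34 and 1.44 (99.2 percentile), and tlh1 itself had 0.98 and 0.58 (96.5 percentile). The lowest were SPAC212.07c at -1.19 and -0.80 on IGR probes and SPAC212.08c, for a GPI anchored protein, at -0.81 and -1.04 on ORF probes. SPAC212 thus held both extremes of the members on both probe sets. The authors' reference lay at the 99.5 percentile for the tlh1 region and 99.7 for SPAC212.06c. It lay at 39.6 for the SPAC212.07c region and 15.4 for SPAC212.08c. Whether these extremes reflect H3 was not tested.

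Of the Vel1p domain copies, the wild-type signals were 0.32 and 0.34 for SPAC977.05c, -0.34 and 0.24 for SPAC1348.06c, and 0.12 and 0.06 for SPBPB2B2.15 on ORF probes. The SPAC977.05c mean lay at the 80.9 percentile of all ORF probes and the other 2 near the middle.

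No member differed at least 2-fold between hst2D or hst4D and wild type in both files, on IGR or ORF probes. Of all probes 0.385% (hst2D) and 0.526% (hst4D) of IGR, and 0.653% and 0.591% of ORF probes, did so. There is no test with 1 sample per strain. The highest by the mean of the 2 files were say1 (SPBPB2B2.02), a sterol deacetylase gene, on ORF probes at 1.37 and 0.93 in hst4D minus wild type, and the region of SPAC977.06 at 0.91 and 1.04 in hst2D minus wild type. The lowest were the region of SPAC977.14c at -1.19 and -0.70 in hst4D minus wild type, and SPAC750.07c on ORF probes at -0.71 and -0.99 in hst2D and -1.01 and -0.56 in hst4D. The tlh1 region, highest in wild type, had -1.11 and -0.42 in hst2D and -1.19 and -0.08 in hst4D, all against the same wild-type values. The wild-type signals of say1 and the SPAC977.06 region lay at the 2.26 and 1.86 percentile of all probes. Those of the SPAC977.14c region and SPAC750.07c lay at 91.3 and 97.2. The wild-type signal is part of each difference, and its share in these extremes was not tested.

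Genes for telomere and silencing factors outside the cosmids were looked at as a list of 16, of which 15 were measured on all arrays. 1 was higher and 1 was lower on pst3 repressed arrays (4.17% and 4.41% of all genes), with a median difference of -0.06. hst2, a Sir2-family deacetylase gene, averaged 10.66 on pst3 repressed and 8.70 on wild-type arrays (difference 1.96, SE 0.47, limma adjusted p = 0.0216). clr3, a histone deacetylase gene of the silencing machinery, averaged 10.15 on pst3 repressed and 11.79 on wild-type arrays (difference -1.64, SE 0.41, adjusted p = 0.0269). Without pst3 repressed replicate 1 or 2 both calls were lost, with adjusted p of 0.190 and 0.153 for hst2 and 0.169 and 0.229 for clr3. The call of clr3 was also lost without wild-type replicate 5 (0.0504) and with cyclic loess (0.0633), and that of hst2 with median centring (0.133) and with the second spot set alone (0.0792). With a random block for the print the adjusted p was 0.0808 for hst2 and 0.0877 for clr3. The telomere protein genes taz1, rap1, rif1, pot1, tpz1, poz1 and ccq1 did not pass the test, with differences from -1.41 for tpz1 to 1.02 for poz1.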

How the data were processed

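RNA and immunoprecipitated DNA were hybridised to spotted ORF or IGR arrays. Each deposited file holds, per the file headers, the signal intensity of every spot and the background intensity around it, for a single channel and spot set. The sources used here name no scanner, software or genome build. IGR and ChIP files also hold a reference intensity per region made by the authors. The rule for the members uses names only, but it and the gene lists were chosen with earlier results of these data known.

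Expression signals were corrected with normexp (offset 50, except channels whose background was 0 for at least 0.9 of spots), quantile normalised over channels, averaged per array and tested with limma's lmFit and eBayes with Benjamini-Hochberg adjustment at 0.05 over all genes. Names that appeared exchanged between 2 plates on the pst3 repressed print (192 names, no member among them) and names above the empty-spot limit on no array were left out. The comparison with wild-type replicates 1 to 5, and leaving out these names, were chosen after seeing the data. Pst3-GFP signals were divided by the reference, log2 transformed, centred on the median and tested with limma against 0. Beads and H3 signals were median-centred on the log2 scale and counted past 2-fold (1 on the log2 scale). The number of arrays limits the precision.

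Likeness of copies was taken from coding nucleotides with blastn 2.17.0 and Biopython 1.88, since no protein table was used here, on RefSeq assembly ASM294v3. Named members were those called, the SPAC977 and SPAC1348 pairs, the 5 highest and 5 lowest members of the expression and Pst3-GFP comparisons, some of the highest and lowest on H3 arrays, members with a symbol where their role is described, and a list of telomere and silencing genes. Fits were also run on simulated normal values. These held no print effect and no lower limit of signal, so the runs do not test the calls for either. R 4.3.3, limma 3.58.1 and Python 3.11.15 were used. Replicate numbers were given in the order of the samples and pair nothing.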

Additional observations from a re-analysis of the deposited data

Results flagged for a closer look

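Among 39 named members, the wild-type arrays of 4 held 1 array far from the others, where chance flags about 1 in 20 groups. SPAC1348.01 stood at 9.53 in wild-type replicate 3, against 7.42 to 8.23 on the other 7 arrays. SPAC1348.09 stood at 8.84 in the same replicate, against 7.43 to 8.01. SPBPB10D8.05c stood at 14.35 in wild-type replicate 1, against 12.07 to 12.67 on the other 4, and without that array its difference from wild type was -2.06 (limma, adjusted p = 0.0426). SPBPB10D8.07c, its identical copy, stood at 13.74 in the same replicate, against 11.99 to 12.47, and without it differed by -1.79 (adjusted p = 0.0144).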

How the results depend on the processing

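Against all wild-type arrays, 7 members were called, and this became 17 with wild-type replicates 1 to 5 alone (93 members), 12 with replicates 6 to 8 alone, 3 with median centring, 1 without the dimmest 25% of probes (23 members left), 4 with a random block for the print, and 2 to 10 on leaving out 1 array, lowest without either pst3 repressed array. Against wild-type replicates 1 to 5, 17 became 7 with median centring, 9 without the dimmest 25% (33 members left) and 3 to 26 on leaving out 1 array: 3 and 4 without pst3 repressed replicate 1 and 2, 26 without wild-type replicate 3, and 9 without wild-type replicate 4 or 5. The other settings stayed within 1.5 times. Of 232 values of 12 members that were called or had one of the 5 highest or lowest differences against all wild-type arrays and 257 values of 19 such members against replicates 1 to 5, none changed sign, and 29 and 88 lost a call. SPAC977.05c and SPAC1348.06c kept their call in 19 of 19 settings that held them against all wild-type arrays. Against replicates 1 to 5 they kept it in 14 of 14, and SPBPB2B2.15 in 13 of 13 that held it. Leaving out the dimmest 25% of probes removed SPAC977.05c, SPAC1348.06c and the other members called higher against all wild-type arrays. It also removed SPBPB2B2.15 against replicates 1 to 5, so this setting did not test them there.

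The 1 called Pst3-GFP region became 16 with normexp, 7 with normexp and loess, 2 without the dimmest 25%, and 0 with background subtracted (56 members left) or with the first or second spot set alone. With normexp and loess the SPAC977.15 region turned to -0.0553 and that of SPBPB2B2.05 gave 0.03. On the beads slide, normexp gave 41 IGR members and a 1.5-fold limit 47 ORF members. For H3, the 0 members past 2-fold became 4 (hst2D) and 4 (hst4D) IGR and 2 and 2 ORF members at 1.5-fold, 6, 3, 4 and 8 with normexp, and 12, 6, 8 and 8 with background subtracted, where 42, 45, 54 and 58 members were left. The causes of these changes were not tested. No count was made for Pst3-GFP with 1 array, and the alternatives on the authors' value tables were not run, because their rows carry no probe names. No paired analysis was possible because the labels give no replicate numbers that tie arrays of different groups together.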
